A study of Mus musculus with 6 samples.

Results

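The type I interferon effector genes examined here are 34 mouse genes that were listed by name and matched to the gene symbols of the deposited table. Of the 31815 gene rows of that table, 32 matched a member, and no row matched Mx1 and Mx2, the Mx GTPases, which are therefore not analysed here. All 32 passed the filter on low counts, among 15462 genes tested. The rule that names them uses no measured value, although the list was drawn up with earlier results of these data known. Messenger RNA was sequenced from cells sorted from the cortex and outer medulla of kidneys of male mice aged 9 to 12 weeks. All animals carried Axin2CreERT2/+:R26RtdT/+:Acta2-GFP, had bilateral ischemia reperfusion injury (IRI), in which the blood supply of both kidneys is interrupted and restored, and received tamoxifen on days 2 and 4 after it. The CreERT2 recombinase stands under Axin2, a feedback target of canonical Wnt signalling, so that tamoxifen leaves a permanent tdTomato (tdT) label in cells that use Axin2, and GFP is under Acta2, which encodes smooth muscle actin. On day 6, tdT+GFP+ cells and tdT-GFP+ cells were sorted, which gave 3 libraries of each population, labelled as biological replicates 1, 2 and 3. Libraries with the same number are treated here as the same kidney, and are called kidneys 1, 2 and 3. Both populations share the genotype, the injury and the tamoxifen, so that neither an uninjured nor an untreated state is compared. Axin2 use outside the tamoxifen window leaves no label, and the labels do not say which kidneys came from the same animal. The design asks how GFP+ cells with an Axin2 history differ from the other GFP+ cells of injured kidneys.

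Type I interferons are secreted when cells sense foreign or misplaced nucleic acid. They act through a shared surface receptor, the kinases Jak1 and Tyk2, and a transcription factor complex that includes Irf9 and binds the interferon-stimulated response element in the promoters of many genes. The effector genes at the end of this pathway encode proteins that bind or degrade viral RNA, hold back virus particles, modify proteins with ubiquitin-like tags or ADP-ribose, and feed back on the signal. In the injured kidney such genes can respond to nucleic acid released from damaged cells and mitochondria.

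The promoters shown here are of 3 members with log2 fold changes below -1 that hold the core of the response element (Isg15, Ifit1, Rsad2), 1 below -1 that does not hold it in this window (Cmpk2), 1 with the core and a log2 fold change near 0 (Oas3) and 1 without it and near 0 (Epsti1). They were chosen for this contrast after the values were seen. Each is the 250 bases before the RefSeq transcription start, on the strand of the gene, 5′ to 3′. Capitals mark each match to GAAA, any 2 bases, GAAA, searched on both strands, so that a match on the other strand reads TTTC, any 2 bases, TTTC. Coordinates are on GRCm38.p6.
Isg15, chr4:156200819-156201068, minus strand: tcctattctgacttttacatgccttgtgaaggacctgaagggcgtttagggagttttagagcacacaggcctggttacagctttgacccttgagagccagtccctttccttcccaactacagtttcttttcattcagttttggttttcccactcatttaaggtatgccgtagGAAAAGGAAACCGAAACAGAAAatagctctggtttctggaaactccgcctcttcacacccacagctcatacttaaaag
Ifit1, chr19:34640639-34640888, plus strand: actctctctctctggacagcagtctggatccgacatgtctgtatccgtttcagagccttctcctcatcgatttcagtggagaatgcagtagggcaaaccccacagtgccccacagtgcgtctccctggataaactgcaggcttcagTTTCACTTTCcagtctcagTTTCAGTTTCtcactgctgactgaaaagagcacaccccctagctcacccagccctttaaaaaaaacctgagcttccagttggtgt
Rsad2, chr12:26456453-26456702, minus strand: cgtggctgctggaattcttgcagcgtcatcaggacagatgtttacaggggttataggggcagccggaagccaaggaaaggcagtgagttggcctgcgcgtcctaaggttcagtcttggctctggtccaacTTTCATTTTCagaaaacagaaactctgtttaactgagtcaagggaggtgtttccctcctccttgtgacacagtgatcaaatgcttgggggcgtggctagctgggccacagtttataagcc
Cmpk2, chr12:26468965-26469214, plus strand: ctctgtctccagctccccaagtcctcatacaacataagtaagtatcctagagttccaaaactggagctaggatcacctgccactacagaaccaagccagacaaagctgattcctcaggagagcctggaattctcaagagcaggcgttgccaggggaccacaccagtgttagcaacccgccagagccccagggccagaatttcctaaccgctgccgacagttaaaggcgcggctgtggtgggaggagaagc
Oas3, chr5:120777660-120777909, minus strand: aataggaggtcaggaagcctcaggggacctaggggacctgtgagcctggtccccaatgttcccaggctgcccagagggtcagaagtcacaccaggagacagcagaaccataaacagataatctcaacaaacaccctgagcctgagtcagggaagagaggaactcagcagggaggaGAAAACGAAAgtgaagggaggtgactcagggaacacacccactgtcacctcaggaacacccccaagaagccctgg
Epsti1, chr14:77903989-77904238, plus strand: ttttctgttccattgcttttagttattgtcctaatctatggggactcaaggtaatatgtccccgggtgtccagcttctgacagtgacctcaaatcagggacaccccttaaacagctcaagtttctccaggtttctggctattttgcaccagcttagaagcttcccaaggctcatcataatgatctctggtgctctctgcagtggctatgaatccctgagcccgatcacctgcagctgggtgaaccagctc
Isg15 holds 3 overlapping matches in 1 run, starting 78, 72 and 66 bases before the start. Ifit1 holds 2 matches 104 and 85 bases before the start, both on the other strand, and Rsad2 holds 1, on the other strand, 120 bases before it.

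Most effector genes had lower levels in tdT+GFP+ cells, and the largest differences were in Ifi44, Rsad2, the gene of viperin, Usp18, the protease that removes ISG15 from proteins, and Oasl1, an oligoadenylate synthetase-like protein. Ifi44 was 3.72-fold, Rsad2 3.44-fold and Usp18 2.47-fold lower. The fitted log2 fold change, tdT+GFP+ minus tdT-GFP+, was negative in 31 of 32 members, against 50.1% of all genes tested, and its median was -0.59, against -0.0004 over all genes. In 8 members it was below -1, and Epsti1 was the member with a positive value. The summed level of the members was 1075, 1151 and 1319 CPM (normalised counts scaled to library size with TMM factors) in tdT+GFP+ libraries 1, 2 and 3. In tdT-GFP+ libraries 1, 2 and 3 it was 1368, 1668 and 1695 CPM, so that the populations did not overlap. The largest parts of these sums were Ifitm3 and Lgals3bp, at means of 371 and 359 CPM over all libraries. Each of these genes by itself overlapped between the populations. In bulk libraries, fewer cells of a type and less RNA per cell cannot be told apart.

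None of these differences passed the main test over all genes. At an adjusted p under 0.05 (Benjamini-Hochberg), the edgeR quasi-likelihood test called 0 of 15462 genes (0%) and 0 members, with adjusted p-values from 0.388 to 0.997 over the members. At an unadjusted p under 0.05 in edgeR, 24 members were lower and 0 higher, against 6.97% of all genes lower and 3.71% higher. In 23 members every tdT+GFP+ library lay below every tdT-GFP+ library, which held for 8.6% of all genes. These 23 are by definition lower in every pair of libraries. Counting them, 27 members were lower in tdT+GFP+ cells in all 3 kidneys, against 17.1% of all genes. DESeq2, run as an alternative, called 13 members lower and 0 higher at an adjusted p under 0.05, against 1.81% of the genes it adjusted. DESeq2 with the kidney as a replicate block called 14 lower and 0 higher, against 1.66%, and edgeR with the same block called 0 members (smallest adjusted p = 0.214). The number called by DESeq2 was 4 without tdT+GFP+ replicate 1 and 4 without tdT-GFP+ replicate 3, and the share of all genes called lower also dropped, to 0.32% and 0.466%. Leaving out replicate 2 of tdT+GFP+ or of tdT-GFP+ cells gave 7 members each, with 1.22% and 2.27% of all genes. Ifi44, Rsad2, Usp18 and Cmpk2 were called by DESeq2 in each of the 9 fits that left out a library or a kidney.

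**Figure D1:**
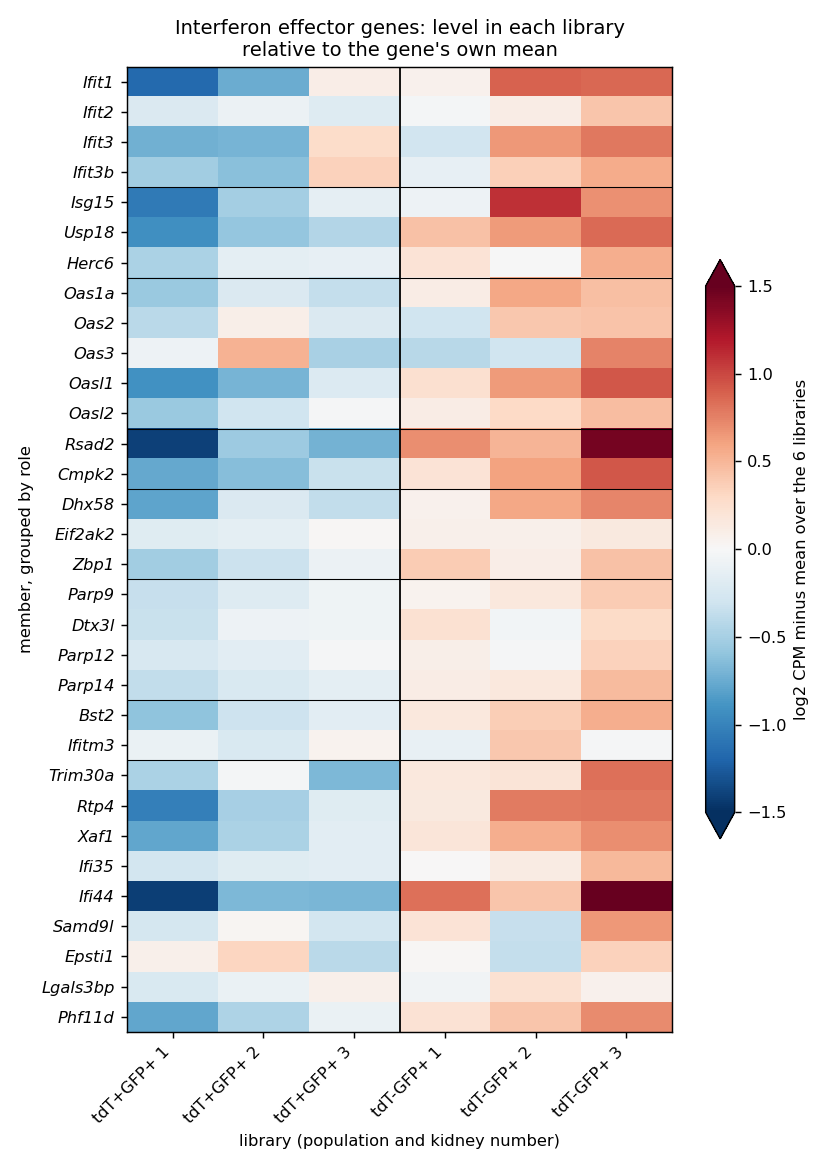
Heat map of the 32 measured members (rows, grouped by role) in the 6 libraries (columns), coloured by log2 CPM minus the mean of that member over the 6 libraries, with the colour scale ending at -1.5 and 1.5. The 3 tdT+GFP+ columns are mostly blue and the 3 tdT-GFP+ columns mostly red. Members that depart from this include Oas3, Epsti1, Ifitm3, Samd9l and Lgals3bp.

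Depth was similar across the libraries, with total counts of 25697348 to 33029933, and 3 counts correspond to 0.0915 to 0.114 CPM. The sorts were checked against cell type markers. Summed fibroblast and myofibroblast markers were at 56100.1 to 63318 CPM in the tdT+GFP+ libraries and 43402 to 64706 CPM in the others, and Acta2 was at 1416 to 1747 and 943 to 1588 CPM. Other cell types also differed between the populations. The log2 fold change was negative in all 18 endothelial markers, with a median of -1.27, and their sum was 1583 to 2301 CPM in the tdT+GFP+ and 2672 to 4409 CPM in the tdT-GFP+ libraries, without overlap. All 7 mural markers had negative values (median -0.51), with sums of 770.0 to 1042 and 1058 to 1949 CPM. Of 16 macrophage and monocyte markers, 14 had positive values (median 0.65), with sums of 504 to 1870 CPM in the tdT+GFP+ and 368 to 1083 CPM in the tdT-GFP+ libraries. The sums of proximal tubule (119 to 472 and 155 to 429.8 CPM), neutrophil (14.1 to 22.2 and 10.9 to 17.8 CPM), T and NK cell (2.47 to 5.09 and 2.95 to 5.82 CPM) and B cell markers (0.685 to 1.19 and 0.724 to 1.08 CPM) overlapped. Plasmacytoid dendritic cells are strong producers of type I interferon. Their listed markers summed to 50.1 to 63.3 and 54.2 to 84.5 CPM, almost all of it Klk1, which kidney tubules also express. Among the rest of that list, Siglech was at 0.483 to 0.875 CPM in the tdT+GFP+ and 0.691 to 2.37 CPM in the tdT-GFP+ libraries. Ccr9 was at 0.226 to 0.647 and 0.785 to 1.45 CPM, without overlap. Pacsin1 and Cox6a2 did not pass the filter and overlapped. The mean of Pacsin1 was lower in tdT+GFP+ libraries (0.302 against 0.644 CPM) and that of Cox6a2 higher (0.172 against 0.0866 CPM). Single libraries were at 0 for Cd3d, Ncr1, Ms4a1, Cox6a2 and, in 5 of 6 libraries, Ly6g, and no listed marker was at 0 in all 6.

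Differences were also compared within kidneys. The median log2 difference of the members was -0.65, -0.62 and -0.72 in kidneys 1, 2 and 3. Over the endothelial markers it was -1.44, -0.25 and -1.64, over the mural markers -1.03, 0.19 and -0.87 and over the macrophage markers 0.95, 1.88 and -1.14. Single endothelial markers, chosen after their values were seen, departed from their median: in kidney 2, Cldn5 was at -3.50 and Sox17 at -3.29, and Pecam1 was at 0.04. What part these cells have in the members' levels was not tested. All values per kidney rest on reading the replicate numbers in the labels as kidney numbers, and this is in doubt for kidneys 2 and 3. Across genes, the deviations from the group means correlated better between tdT+GFP+ library 2 and tdT-GFP+ library 3 (0.448) and between tdT+GFP+ library 3 and tdT-GFP+ library 2 (0.444) than between libraries of the same number (-0.578 and -0.304 for kidneys 2 and 3).

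**Figure D2:**
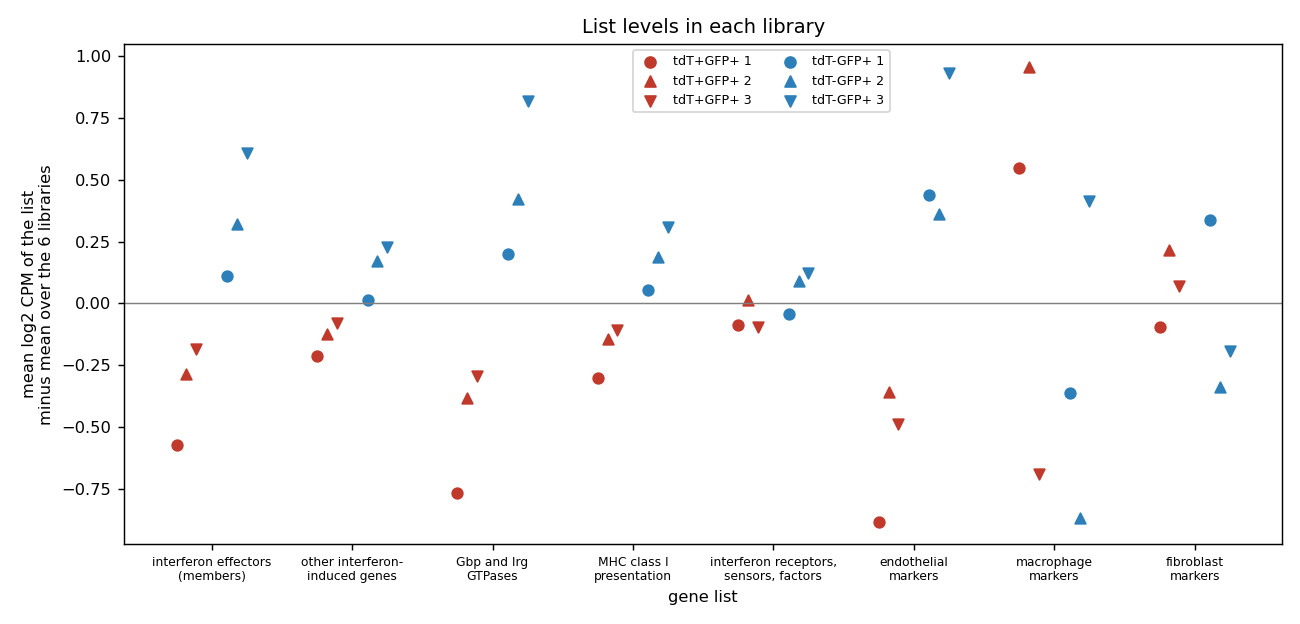
Mean log2 CPM of each gene list in each library, minus the mean of that list over the 6 libraries (vertical axis, log2), for the effector genes, 4 interferon-related lists and 3 marker lists (horizontal axis). Colour gives the population and symbol shape the replicate number. The effector genes, the other interferon-induced genes, the GTPases, the MHC class I genes and the endothelial markers are separated by population, while the macrophage and fibroblast markers are not.

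IFIT proteins bind foreign RNA by its ends and block its translation. Their 4 genes lie within 99316 bases of GRCm38 chromosome 19 (34550694 to 34650009, plus strand). Ifit3, the IFIT gene with the highest mean CPM, was at 22.5, 22.98 and 44.9 CPM in tdT+GFP+ libraries 1, 2 and 3 and 30.4, 58.3 and 64.2 CPM in tdT-GFP+ libraries 1, 2 and 3. The populations overlapped, because tdT+GFP+ library 3 lay above tdT-GFP+ library 1. The log2 fold change was -0.76 (SE 0.37, adjusted p = 0.494, edgeR). Ifit1 (ENSMUSG00000034459.8), whose promoter is printed above, was at 5.37, 7.25 and 13.1 CPM against 12.8, 22.5 and 22.2 CPM. The same pair of libraries overlapped, at 13.1 and 12.8 CPM, and the log2 fold change was -1.17 (SE 0.37, adjusted p = 0.438, edgeR). DESeq2 called Ifit1 with the kidney block (adjusted p = 0.0012) and not without it (adjusted p = 0.079). Ifit2 showed no overlap, with a smaller log2 fold change of -0.35 (SE 0.13), and Ifit3b overlapped, with -0.49 (SE 0.31). Of the 50-base stretches of Ifit3 transcripts, 51.2% also occur in Ifit3b, so that the division of reads between these paralogs is uncertain.

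Isg15 encodes a ubiquitin-like protein that is attached to other proteins, Herc6 the main ligase that attaches it in mice, and Usp18 the protease that removes it and also dampens the interferon receptor. Isg15 (ENSMUSG00000035692.7, chromosome 4, 156199424 to 156200818, minus strand) was at 6.77, 9.89 and 12.9 CPM in tdT+GFP+ libraries 1 to 3 and 13.4, 30.5 and 22.9 CPM in tdT-GFP+ libraries 1 to 3. All tdT+GFP+ libraries were below all tdT-GFP+ libraries, although the highest of the former and the lowest of the latter were close. The log2 fold change was -1.18 (SE 0.35, adjusted p = 0.414 in edgeR and 0.048 in DESeq2). Usp18 (ENSMUSG00000030107.10, chromosome 6, 121245906 to 121270917, plus strand) was at 3.02, 3.84 and 4.22 CPM against 7.83, 9.01 and 10.46 CPM. The gap between the populations was wider than the spread within either, and Usp18 ranked 8 among all genes tested by unadjusted p. Its log2 fold change stood at -1.30 (SE 0.19, 95% interval -1.76 to -0.85, adjusted p = 0.388 in edgeR and 1.4e-05 in DESeq2), with kidney differences of -1.36, -1.22 and -1.29. Herc6 was at 9.99 ± 1.31 CPM in tdT+GFP+ and 14.2 ± 2.82 CPM in tdT-GFP+ libraries (SD over 3 libraries each), without overlap. Of its 50-base stretches, 23.8% are shared with other genes.

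Active enzymes of the oligoadenylate synthetase family make short adenylate chains that switch on RNase L, an enzyme that cuts RNA. Not every protein of the family, which includes synthetase-like ones, need have this activity, and it was not measured here. Oasl2 was at 39.2, 46.8 and 57.0 CPM in tdT+GFP+ libraries 1 to 3 and 62.3, 71.1 and 79.3 CPM in tdT-GFP+ libraries 1 to 3. The populations did not overlap, and the log2 fold change was -0.57 (SE 0.15, adjusted p = 0.409 in edgeR). Oasl1, which lies 11005 bases from Oasl2 on chromosome 5, was at 2.07, 2.42 and 3.42 CPM against 4.67, 6.17 and 7.56 CPM. It was lower in every tdT+GFP+ library, with a log2 fold change of -1.22 (SE 0.27, and adjusted p = 0.394 in edgeR and 0.011 in DESeq2). Oas1a was at 6.10, 7.73 and 7.002 CPM against 9.78, 13.5 and 12.3 CPM. These values did not overlap either, and the log2 fold change was -0.77 (SE 0.16, adjusted p = 0.394 in edgeR and 0.013 in DESeq2). With the kidney block, DESeq2 gave Oas1a an adjusted p of 0.060. Of the 50-base stretches of Oas1a, 57.6% occur in other genes, chiefly Oas1g. Oas2 (-0.38, SE 0.25) and Oas3 overlapped between the populations. Oas3 was at 1.19, 1.84 and 0.875 CPM against 0.922, 1.01 and 2.15 CPM. The order of the populations differed between kidneys, and the log2 fold change stood at -0.06 (SE 0.45, interval at 95% from -1.13 to 1.02), which does not show that the levels are equal.

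Rsad2 encodes viperin, which makes a nucleotide that ends the copying of viral RNA, and its neighbour Cmpk2 encodes a mitochondrial nucleotide kinase. The genes lie on opposite strands of chromosome 12, at 26442746 to 26456452 and 26469204 to 26479837, with 12751 bases between them. Rsad2 (ENSMUSG00000020641.16) was at 13.8, 24.9 and 22.3 CPM in tdT+GFP+ libraries 1 to 3 and 59.0, 51.9 and 98.9 CPM in tdT-GFP+ libraries 1 to 3. The lowest tdT-GFP+ library was well above the highest tdT+GFP+ library. The log2 fold change stood at -1.78 (SE 0.32, interval at 95% from -2.55 to -1.02, adjusted p = 0.388 in edgeR and 1.5e-05 in DESeq2). Cmpk2 (ENSMUSG00000020638.8) was at 10.1, 11.02 and 13.7 CPM against 19.9, 26.3 and 33.0 CPM. It did not overlap, and its log2 fold change stood at -1.19 (SE 0.21, 95% interval -1.69 to -0.69, adjusted p = 0.388 in edgeR and 0.00019 in DESeq2). The difference in Rsad2 was -2.09, -1.06 and -2.15 in kidneys 1, 2 and 3 and that in Cmpk2 was -0.98, -1.25 and -1.26.

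The sensors of viral nucleic acid had a median log2 fold change of -0.62 over 3 genes. Eif2ak2, the kinase PKR that stops translation when it binds double-stranded RNA, was at 33.01, 33.8 and 37.8 CPM in tdT+GFP+ libraries 1 to 3 and 39.5, 39.5 and 41.4 CPM in tdT-GFP+ libraries 1 to 3. The populations were separate by a narrow margin, and the log2 fold change was -0.20 (SE 0.08, adjusted p = 0.451, edgeR). Dhx58, the RIG-I-like helicase LGP2, was at 4.71 ± 0.948 CPM in tdT+GFP+ and 9.00 ± 2.08 CPM in tdT-GFP+ libraries. Its log2 fold change was -0.94 (SE 0.24, adjusted p = 0.404 in edgeR and 0.041 in DESeq2). DESeq2 called Dhx58 in 1 of the 9 fits that left out a library or a kidney. Zbp1, a sensor of Z-form nucleic acid that can start necroptosis, was at 8.16 ± 1.25 and 12.5 ± 1.53 CPM. All 3 sensors were free of overlap.

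Parp9 and Dtx3l form a complex that ADP-ribosylates and ubiquitinates proteins, and Parp12 and Parp14 attach single ADP-ribose units. Parp14 (ENSMUSG00000034422.14) was at 54.7, 59.9 and 63.8 CPM in tdT+GFP+ libraries 1 to 3 and 75.9, 78.7 and 97.6 CPM in tdT-GFP+ libraries 1 to 3. It did not overlap, with a log2 fold change of -0.50 (SE 0.12, and adjusted p = 0.394 in edgeR and 0.027 in DESeq2). Parp9 (-0.40, SE 0.12), Dtx3l (-0.32, SE 0.12) and Parp12 (-0.29, SE 0.12) were also separate between the populations. Differences in all 4 genes were at most 1.41-fold. Dtx3l and Parp9 lie on opposite strands of chromosome 16 and overlap by 682 bases. Use of the strand in counting is not given in the sources here, so reads of the overlap may belong to either.

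The membrane restriction factors differed from each other. Bst2 encodes tetherin, which holds budding virus particles at the cell surface. Bst2 (ENSMUSG00000046718.8) was at 22.8, 27.7 and 30.9 CPM in tdT+GFP+ libraries 1 to 3 and 38.6, 44.7 and 50.2 CPM in tdT-GFP+ libraries 1 to 3. The populations did not overlap, the kidney differences were -0.76, -0.69 and -0.70, and the log2 fold change was -0.72 (SE 0.14, adjusted p = 0.394 in edgeR and 0.0052 in DESeq2). Ifitm3, which blocks the fusion of viruses with endosomal membranes, was at 342, 313 and 381 CPM against 340.1, 488 and 362 CPM. Only tdT-GFP+ library 2 stood above all tdT+GFP+ libraries, and the log2 fold change stood at -0.20 (SE 0.16, interval at 95% from -0.58 to 0.18).

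The remaining 9 members have less uniform functions. Ifi44 (ENSMUSG00000028037.13, chromosome 3, 151730922 to 151749960, minus strand) was at 4.52, 7.54 and 7.53 CPM in tdT+GFP+ libraries 1 to 3 and 21.6, 16.3 and 35.0 CPM in tdT-GFP+ libraries 1 to 3. Every tdT-GFP+ library was above every tdT+GFP+ library, and the log2 fold change stood at -1.90 (SE 0.34, interval at 95% from -2.70 to -1.09, adjusted p = 0.388 in edgeR and 3.0e-05 in DESeq2). Xaf1, a partner of the apoptosis inhibitor XIAP, was at 5.58, 6.90 and 8.64 CPM against 10.9, 14.1 and 15.6 CPM. These values were separate too, with a log2 fold change of -0.95 (SE 0.21, and adjusted p = 0.0096 in DESeq2). Phf11d was at 7.63, 9.54 and 12.3 CPM against 15.3, 17.6 and 21.6 CPM, also without overlap. Its log2 fold change was -0.89 (SE 0.21, adjusted p = 0.394 in edgeR and 0.018 in DESeq2). Rtp4, a chaperone of membrane receptors, was 2.204-fold lower (log2 fold change -1.14, SE 0.27, adjusted p = 0.394 in edgeR and 0.010 in DESeq2). Of the 9 fits that left out a library or a kidney, DESeq2 called Xaf1 in 3, Phf11d in 3 and Rtp4 in 4. Trim30a (-0.80, SE 0.25) and Ifi35 (-0.43, SE 0.14) did not overlap and were not called by DESeq2.

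The 3 other genes of this group overlapped between the populations. Lgals3bp, a secreted glycoprotein that binds galectins, was at 306, 334 and 377 CPM in tdT+GFP+ libraries 1 to 3 and 344, 419 and 375 CPM in tdT-GFP+ libraries 1 to 3. Its log2 fold change was -0.16 (SE 0.12). Epsti1, whose promoter is printed above, was at 2.96, 3.51 and 2.09 CPM against 2.83, 2.17 and 3.56 CPM. The fitted difference was 0.0035 (SE 0.29, 95% interval -0.68 to 0.69) and was of opposite sign in kidneys 2 and 3. Samd9l was lower in tdT+GFP+ cells in kidneys 1 and 3 and higher in kidney 2 (0.38), with a log2 fold change of -0.39 (SE 0.25).

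**Figure D3:**
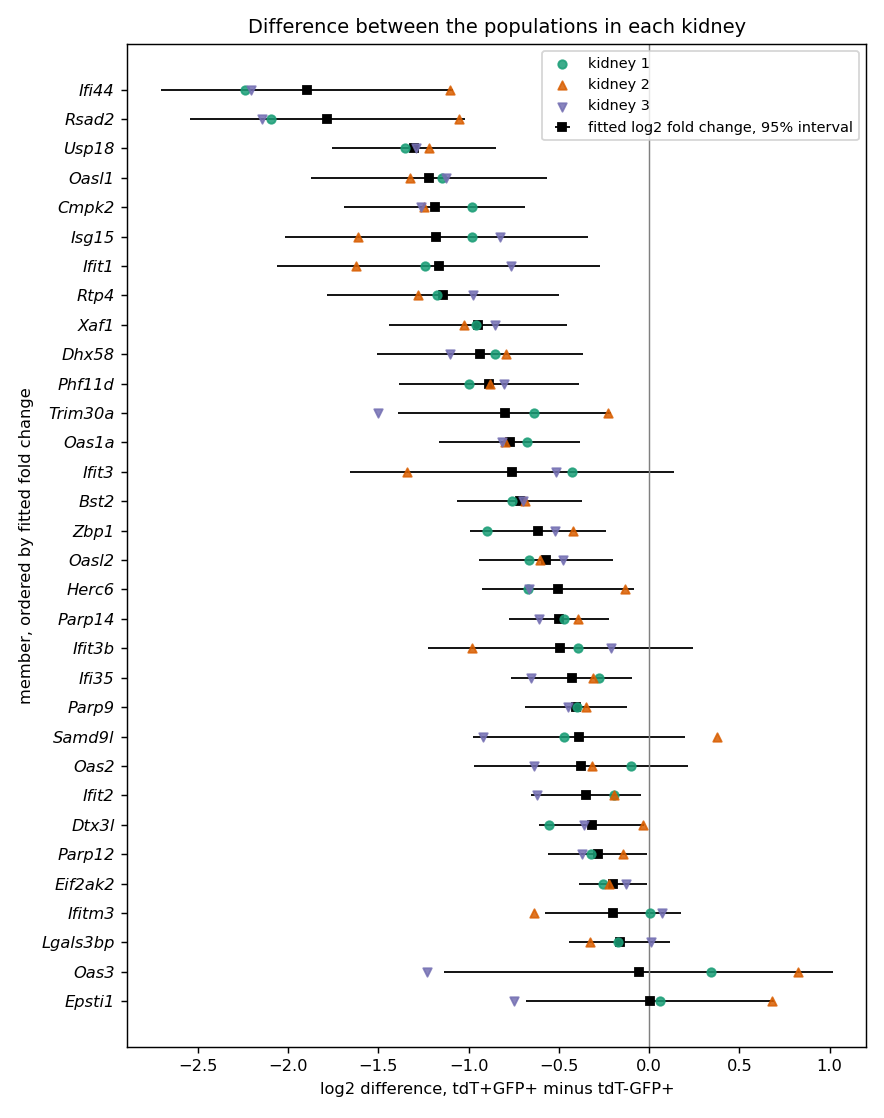
Log2 difference between tdT+GFP+ and tdT-GFP+ cells (horizontal axis) for each of the 32 members (vertical axis). Coloured symbols are the 3 kidneys, paired by replicate number, which is in doubt for kidneys 2 and 3. Black squares with lines are the fitted log2 fold change and its 95% interval. Usp18 and Bst2 lie close together in all 3 kidneys, Ifi44 and Rsad2 are nearest to 0 in kidney 2, and Isg15, Ifit1 and Ifit3 are farthest from 0 there.

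With libraries paired by replicate number, the members differed in which kidney showed the largest difference. In Ifi44 it was -2.24, -1.10 and -2.20 in kidneys 1, 2 and 3, so that kidney 2 was nearest to 0, as in Rsad2. In Ifit1 it was -1.24, -1.62 and -0.76, in Ifit3 -0.43, -1.34 and -0.51 and in Isg15 -0.98, -1.62 and -0.83, with kidney 2 farthest from 0. These genes were chosen for this contrast after their values were seen. The contrast rests on pairing libraries 2 and 3 by number, which is in doubt, and other pairings were not examined for it. A single library stood out within tdT+GFP+ cells: library 1 was the lowest of the 3 in 26 of 32 members, against 3928 of 15462 genes tested. Within tdT-GFP+ cells, library 2 was the highest in 5 members and the lowest in 9, against 5398 and 5502 of 15462 genes tested.

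Levels were compared between members only per length, as RPKM, which divides CPM by the length of the merged exons. Ifitm3 was the most abundant, at 509 ± 49.9 RPKM in tdT+GFP+ cells and 585 ± 118 RPKM in tdT-GFP+ cells (SD, n = 3 each). Lgals3bp followed at 119 and 133 RPKM, then Bst2 at 30.0 and 49.3 RPKM, Ifit3 at 17.3 and 29.2 RPKM and Isg15 at 13.0 and 29.4 RPKM. The most abundant pair overlapped between the populations and Bst2 did not. At the lower end were Epsti1 at 1.23 RPKM in both populations and Oas3 at 0.184 and 0.192 RPKM, which overlapped as well.

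**Figure D4:**
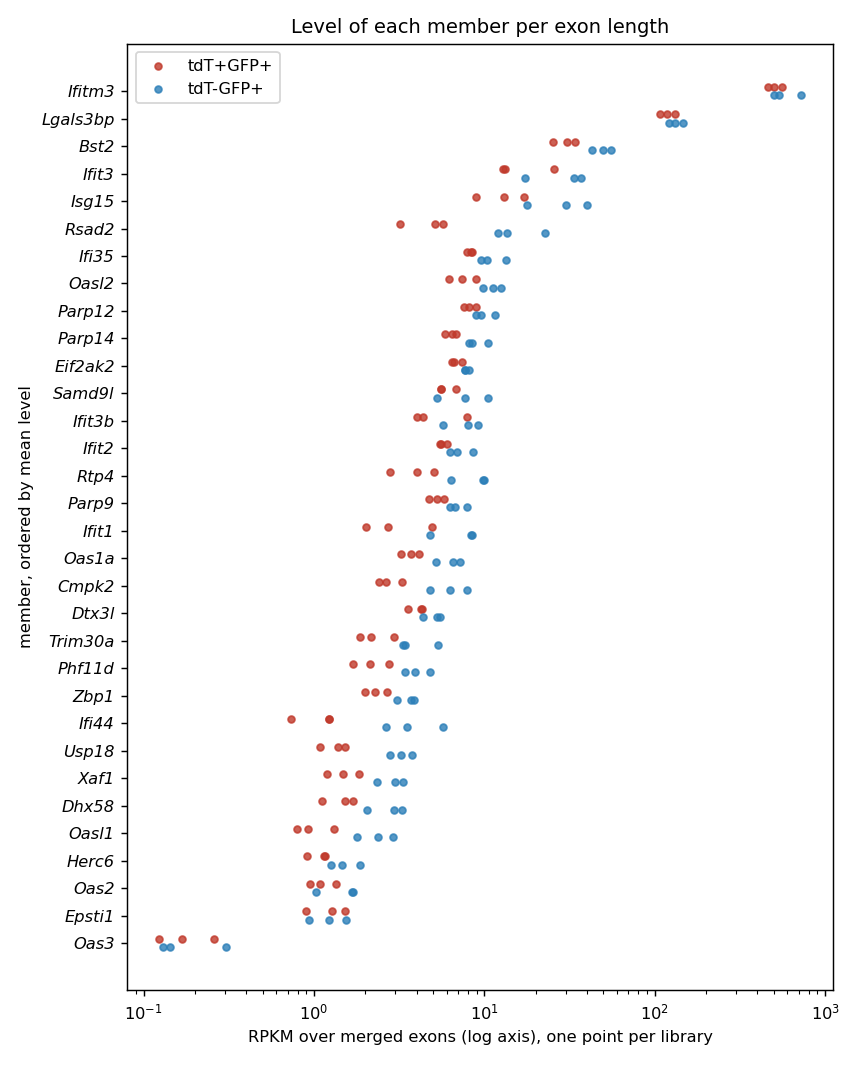
Level of each of the 32 members in RPKM over merged exons (horizontal log axis), 1 point per library, red for tdT+GFP+ and blue for tdT-GFP+ cells, with members ordered by mean level. Ifitm3 and Lgals3bp lie to the right of all others, Oas3 lies to the left, and between them most members show red points to the left of blue ones.

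The response element core was searched in the RefSeq promoter windows, 250 bases before to 50 after each start, which were found for 25 of the 34 members. It was present in 11 of 25 (44.0%), against 1079 of 27025 genes (3.99%) in the whole table. In the related lists, counted over genes with a window, the share was 90.9% for the interferon-induced GTPases and 51.4% for the other interferon-induced genes. For the MHC class I genes it was 35.7%, and for the receptors, sensors and transcription factors 16.7%. The median log2 fold change was -0.76 over the 11 members with the core (range -1.78 to -0.06) and -0.47 over the 14 without it (range -1.90 to 0.0035), and these ranges overlap almost entirely. Ifi44, the member with the lowest log2 fold change, had no match in its window, and Oas3, with a match 75 bases before the start, had a difference near 0. The window holds 2 matches each in Bst2, Ifit3, Ifit3b, Oas1a and Ifitm3. Trim30a has 2 windows with 1 match each. The last bases of 1 of these windows, and of the Ifit3b window, were not found in an annotated transcript of the gene. The matches in Ifitm3, the 1 in Eif2ak2 and that of 1 Trim30a window lie after the start. A match is a description of the letters, and its use by a factor was not measured.

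**Figure D5:**
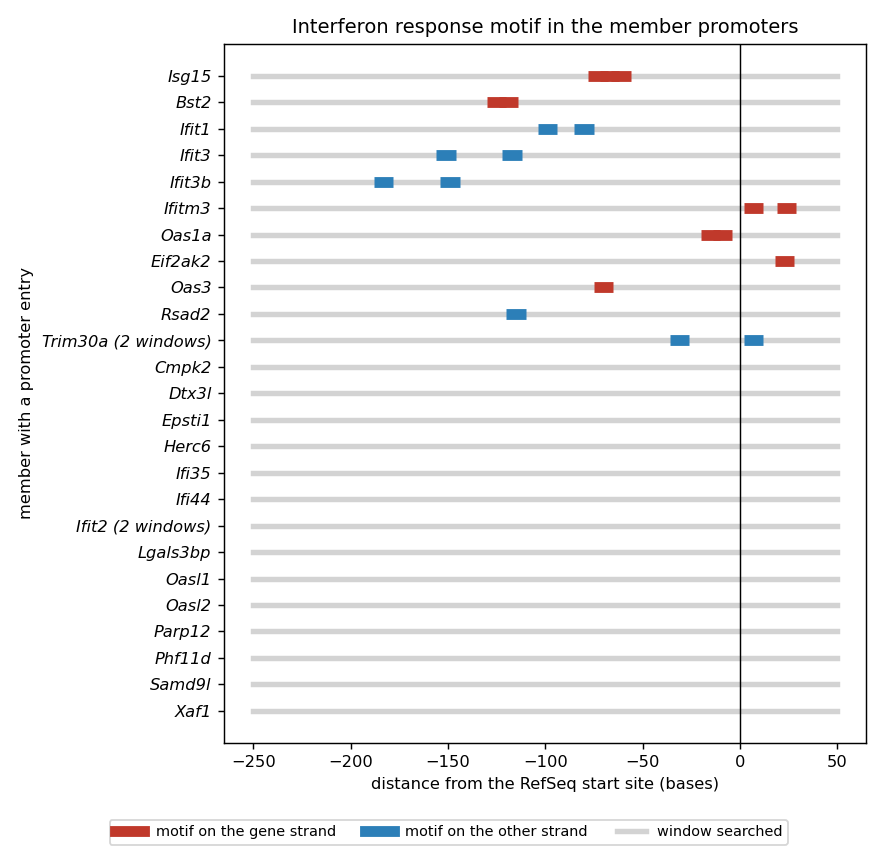
Position of the response element core (GAAA, any 2 bases, GAAA) in the promoter windows of the 25 members with a RefSeq entry (vertical axis), as distance from the start site in bases (horizontal axis). Red marks the gene's strand, blue the other strand and grey the window searched. The matches of the 11 genes lie in the 188 bases before the start or just after it, and 14 genes have none.

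Among the upstream genes of the pathway, the receptor and its kinases showed little difference, and the transcription factors Irf7 and Irf9 were lower in tdT+GFP+ cells. The log2 fold changes of the receptor genes Ifnar1 and Ifnar2 were 0.02 (SE 0.10) and 0.0045 (SE 0.09), and those of the kinase genes Jak1 and Tyk2 were 0.02 (SE 0.08) and -0.05 (SE 0.07). Irf7, the factor that amplifies interferon transcription and is itself induced by interferon, was at 17.0, 20.9 and 24.9 CPM in tdT+GFP+ libraries 1 to 3 and 29.1, 51.2 and 48.5 CPM in tdT-GFP+ libraries 1 to 3. It did not overlap, with a log2 fold change of -1.04 (SE 0.24, and adjusted p = 0.394 in edgeR and 0.0080 in DESeq2). Irf9 was at 30.4 ± 4.86 CPM in tdT+GFP+ and 48.1 ± 6.59 CPM in tdT-GFP+ libraries (log2 fold change -0.67, SE 0.15), and the RNA sensor Ddx58 was at 48.1 ± 4.24 and 64.4 ± 5.66 CPM (-0.42, SE 0.10). DESeq2 called Irf7, Irf9 and Ddx58 lower, and with the kidney block the call of Ddx58 was lost (adjusted p = 0.101). Over the 26 tested receptors, sensors and factors, 13 were negative and 13 positive with a median of -0.01, and edgeR called 0. At an unadjusted p in edgeR, 8 were lower, against 6.97% of all genes, and 1, Jak2, was higher, against 3.71%. Of the interferon genes, only Ifnb1 and Ifng were examined, and both were near the limit of detection. Ifnb1 had 0, 0 and 0 counts in tdT+GFP+ libraries and 1, 0 and 2 in tdT-GFP+ libraries, and Ifng had 5, 4 and 2 against 8, 6 and 3 counts, so that neither was tested.

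Other interferon-induced families had the same direction. Of 16 tested GTPases of the Gbp and Irg families, which attack the vacuoles of intracellular microbes, 15 were negative with a median of -0.91. At an unadjusted p, 14 were lower and 0 higher in edgeR, and DESeq2 called 10. Over all genes the shares at an unadjusted p in edgeR were 6.97% lower and 3.71% higher. DESeq2 called 1.81% of the genes it adjusted lower, and these shares also stand beside the counts of the lists that follow. Gbp6 was at 9.80 ± 2.25 CPM in tdT+GFP+ and 20.7 ± 2.92 CPM in tdT-GFP+ cells (log2 fold change -1.08, SE 0.19), Gbp2 at 23.1 ± 2.78 and 41.7 ± 8.48 CPM (-0.86, SE 0.16) and Tgtp1 at 3.81 ± 0.979 and 17.2 ± 9.42 CPM (-2.18, SE 0.44). Gbp10 was near the limit of detection in tdT+GFP+ cells, at 0.125 against 0.701 CPM. Of 15 genes of MHC class I presentation, 14 were negative with a median of -0.43, 11 were lower and 0 higher at an unadjusted p, and DESeq2 called 5. They include the peptide transporter genes Tap1 (-0.55, SE 0.12) and Tap2 (-0.44, SE 0.11) and the class I heavy chains H2-K1 (-0.48, SE 0.12) and H2-T23 (-0.43, SE 0.11). With the kidney block DESeq2 called 3 of the 15, against 1.66% of the genes it adjusted. Tap2 (adjusted p = 0.189) and H2-T23 (adjusted p = 0.205) were no longer among them. Of 39 further interferon-induced genes, 34 were negative with a median of -0.31, 16 were lower and 1, Pnpt1, was higher at an unadjusted p, and DESeq2 called 3, namely Helz2 (-0.63, SE 0.13), Sp100 (-0.59, SE 0.14) and Ly6e (-0.74, SE 0.19). Tor3a, among the 4 genes of this list with the smallest unadjusted p, was at -0.33 (SE 0.08) and was not called by DESeq2. After adjustment over all genes edgeR called 0 in each of these lists.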

How the data were processed

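RNA-seq of 6 libraries was analysed. The values the authors deposited are estimated counts, which the column names mark as RSEM gene results per the file headers, and all are whole numbers. The submitters' processing notes name RSEM 1.2.28, STAR 2.6.1, bcl2fastq 2.20, R 3.6.3 and DESeq2 1.26.0, as well as the builds GRCh38 and mm10, whose roles they leave out. Libraries are poly(A) selected and strand-specific, per the labels' protocols. The 92 ERCC rows, all 0, were left out. Gene coordinates, exon lengths and shared 50-base stretches come from GENCODE M21 on GRCm38, in which 31748 of 31815 gene identifiers were found with versions left off. Promoters are from RefSeq on GRCm38.p6, and Parp14, Dhx58, Usp18, Rtp4, Oas2, Mx1, Mx2, Parp9 and Zbp1 have no entry there.

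The test was edgeR 4.0.16 in R 4.3.3 (filterByExpr, TMM factors, robust glmQLFit and glmQLFTest with the group alone), with Benjamini-Hochberg adjustment over all genes. Alternatives were DESeq2 1.42.0, limma-voom 3.58.1, other factors and filters, the kidney as a block, and leaving out each library or kidney. The code was tested on simulated data. Log2 CPM used a prior count of 2. The p-values measure the spread between these libraries, whose labels name biological replicates without naming animals.

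The members and all lists were chosen with earlier results of these data known. Values in every library are given for the member of each role group with the highest mean CPM and the 10 members with the smallest unadjusted p, and for Ifit1, Oas3, Epsti1 and Irf7, which were added after their values were seen. Up to 4 genes per other list were named by unadjusted p, beside the receptor and kinase genes and the interferon genes Ifnb1 and Ifng. Of these, 1 gene is not reported here. The labels number the biological replicates 1 to 3 in each population, and same-numbered libraries were paired here as the same kidney. Across genes, the correlation between the deviations of a pair from their group means was 0.0385 in kidney 1, -0.578 in kidney 2 and -0.304 in kidney 3. For the crossed numbers 2 and 3 it was 0.448 and 0.444, so these numbers are in doubt.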

Additional observations from a re-analysis of the deposited data

How the results depend on the processing

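Over all genes edgeR called 0 and DESeq2 281, or 278 with the kidney as a replicate block. Over the members edgeR called 0, with or without the replicate block, and in limma-voom and each leave-out fit, while DESeq2 called 13, or 14 with the block. Fits that left out a library or a kidney gave 4 to 19 members called lower by DESeq2, beside 0.32% to 4.07% of all genes (7 without replicate 2 of either population, 7 without both libraries of kidney 1 and 6 without both of kidney 2), 17 to 25 members lower at an unadjusted p in edgeR (17 without tdT+GFP+ replicate 1, against 3.12% of all genes) and medians of -0.72 to -0.48. The DESeq2 leave-out fits and the counts at an unadjusted p were added after seeing the data. The median stayed negative in all 17 alternatives, and 30 to 32 members were negative. The sign turned in 3 members whose populations overlap. The log2 fold change of Oas3 was 0.00652 in limma-voom and -0.57 to 0.65 over the leave-out fits. Likewise, the log2 fold change of Ifitm3 was -0.34 to 0.034 over the leave-out fits, with 0.034 without both libraries of kidney 2. In turn, the log2 fold change of Epsti1 was -0.00610 with upper-quartile factors, -0.000882 in DESeq2 with the block, and -0.34 to 0.37 over the leave-out fits. The cause was not tested. The spread between 3 libraries a group limits these values, and depth limits genes near 3 counts such as Ifnb1.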

Other observations

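Of 11065 protein-coding genes outside all lists with a mean of at least 5 CPM, the 8 whose log2 CPM followed the mean of the members most closely over the 6 libraries were Abi3, Rnd1, Smtnl2, Sncg, Aplp2, Plcb4, Rgl2 and Tle2. Their Pearson correlations were 0.999 for Abi3 and 0.998 for Rnd1 and Smtnl2, down to 0.994 for Tle2, given as a description of 6 points that share depth and population. Sncg, the gene of gamma-synuclein, was at 2.29, 3.87 and 4.49 CPM in tdT+GFP+ libraries 1 to 3 and 8.72, 10.7 and 20.9 CPM in tdT-GFP+ libraries 1 to 3. Abi3 was at 11.9, 13.5 and 14.4 CPM against 16.8, 18.5 and 20.9 CPM. Both kept the order of the libraries seen in the mean of the members, which was 3.59, 3.88 and 3.98 against 4.27, 4.48 and 4.77 on the log2 CPM scale. Among the members themselves, Parp9 (0.994) and Bst2 (0.993) correlated best with the mean of the other members over the 6 libraries, and Epsti1 (0.02), Oas3 (0.23) and Ifitm3 (0.45) least.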
